A study of Drosophila melanogaster with 4 samples.

Results

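The regions described here are the broad, shared peaks of chromatin accessibility in the euchromatin of 3 autosomal arms of Drosophila melanogaster S2 cells. S2 is an established line that was derived from embryos and resembles blood cells (hemocytes). Accessibility was profiled by ATAC-seq, in which the transposase Tn5 cuts open DNA and tags it for sequencing. The study made 2 libraries of cells depleted of the linker histone H1 (labelled KD H1) and 2 of cells labelled LacZ, the control. LacZ is a bacterial gene that fly cells do not carry. The deposited data are 2 peak lists in the dm3 build, which the labels tie to all 4 libraries together and to neither treatment, so every comparison below is between the lists and not between conditions. The longer list is called list A (5145 peaks) and the shorter list B (4027 peaks). Each exists once, so there is no replicate, no test across samples, and the intervals given cover counting error only. They treat neighbouring peaks as independent.

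Members were chosen by position, list A width and overlap: a midpoint below 21.0 Mb on 2L, below 22.5 Mb on 3L or above 2 Mb on 3R, a list A width of 600 bp or more, and at least 1 bp shared with a list B peak. That gave 276 members, 5.36% of list A, of which 89 were on 2L, 85 on 3L and 102 on 3R. Position and overlap left 1164 list A peaks, so the other 888 were narrower than 600 bp. Members made up 23.7% of these peaks and 54.9% of the bases they covered, 355.7 of 647.5 kb. Of the 280 list A peaks that met the position and width conditions, 276 had a list B partner. The background is 57.2% over all 2035 list A peaks of these stretches, and because overlap is part of the rule nothing is read from the difference.

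Linker histone H1 binds the nucleosome where DNA enters and leaves it and helps to compact chromatin. Regions that Tn5 cuts easily are those where nucleosomes are missing or loosely held, typically promoters, enhancers and insulators. The edge of a peak is the base where the caller's significance falls below its threshold, and the summit is the base where it is highest.

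The width threshold decided which peaks entered. The narrowest member, of 600 bp, ran on 3R from 25610155 to 25610754 and had a list B span of 535 bp. A 3L member from 19784492 to 19785092 and a 3R member from 25025753 to 25026353 were both 601 bp, with list B spans of 495 and 484 bp. Just below the threshold lay a 2L peak from 18732613 to 18733210, of 598 bp and with a list B span of 202 bp. A 3R peak from 16654539 to 16655134 and another from 19184918 to 19185513 were 596 bp each, with list B spans of 228 and 323 bp. Member width in list A had a median of 882 bp, with quartiles of 697 and 1303 bp and a maximum of 7641 bp. The list B span, from the first to the last base of the overlapping list B peaks, had a median of 819 bp, with quartiles of 635 and 1286 bp. In number, 119 members were under 800 bp wide, 73 were from 800 to under 1200 bp, 48 from 1200 to under 2000 bp and 36 were 2000 bp or wider.

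Most members were wider in list A than in list B, but only slightly. List A was wider in 230 of 276 members (83.3%, exact 95% interval 78.4 to 87.5), list B in 43, and both were equal in 3. Over all 3442 shared list A peaks of the series the share was 75.5%, and in the narrow shared peaks of the same stretches 88.1%. The median log2 ratio of list A width to list B span was 0.05 (0.04 to 0.08) in members, 0.25 in these narrow peaks and 0.08 over all shared list A peaks. These values follow in part from the rule, since a width threshold in list A favours peaks that list A drew wide. With the same threshold set in list B instead, 224 peaks qualified, the median log2 ratio was 0.05 and 186 of 224 (83.0%) were still wider in list A. List B covered less than 50% of 15 members, and all of 20. The median share covered was 93.6% in members, 83.5% in the narrow peaks and 93.5% over all shared list A peaks. Members were thus covered much as shared peaks in general.

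**Figure D1:**
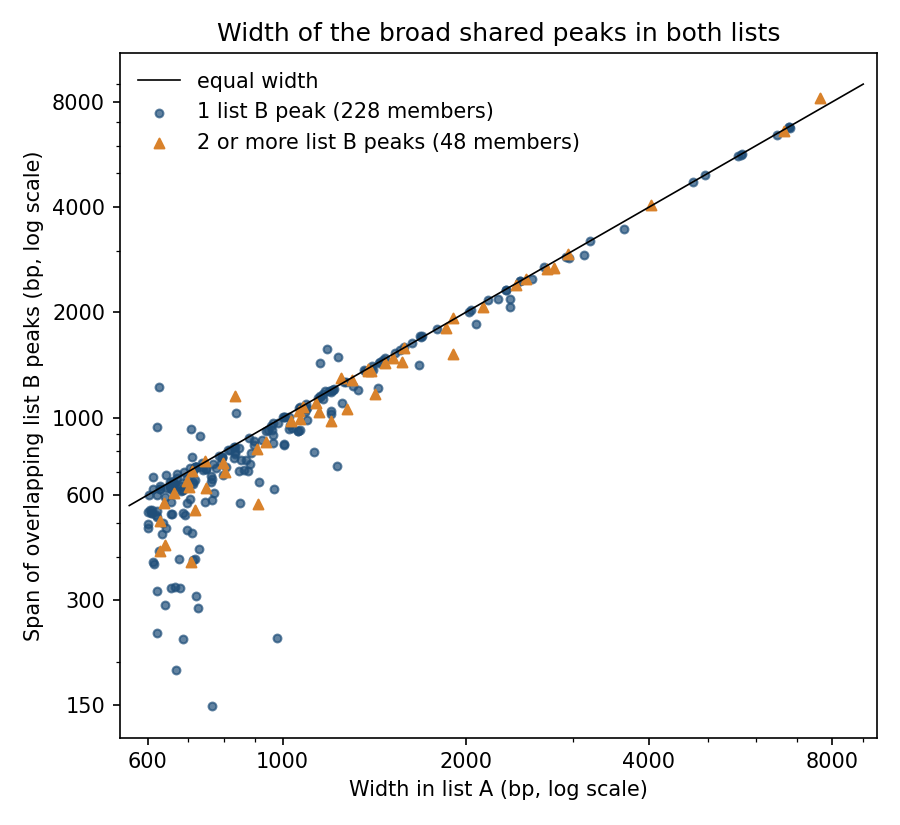
Width of each member in list A (horizontal axis, bp, log scale) against the span of its list B peaks (vertical axis, bp, log scale), with a line of equal width and triangles for the 48 members that list B divided. The widest members lie on the line, and the points far below it are nearly all under 1000 bp wide in list A.

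List A extended past list B at 291 of 552 member edges by more than 10 bp. Both lists ended within 10 bp of each other at 225 edges (40.8%), and list B extended further by more than 10 bp at 36. The median reach of list A was 12.5 bp (10 to 17), with quartiles of 1 and 49 bp, against 19 bp in the narrow shared peaks and 7 bp over all shared list A peaks. List A was further out by more than 10 bp at 52.7% of member edges and at 63.6% of narrow-peak edges. List A reached over 100 bp further at 75 of the 552 member edges and list B at 10. In narrow peaks these counts were 106 and 24 of 1776 edges. Reaches of list A over 100 bp were thus more frequent at member edges, unlike those over 10 bp. Left and right edges had medians of 11.5 and 14.5 bp. At 93 members list A reached more than 10 bp further on both sides, and at 105 on 1 side. At 19 members, 1 edge was held within 10 bp while list A ran over 100 bp further at the other. The same was found at 22 of the 888 narrow peaks.

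Edges lay closest together in members of 1200 bp and wider. The median reach was 20.5 bp in members under 800 bp, 14.5 bp from 800 to under 1200 bp, 7 bp from 1200 to under 2000 bp and 8.5 bp at 2000 bp and wider. Both edges agreed within 10 bp in 62 members (22.5%, 17.7 to 27.9), against 33.1% of all 3442 shared list A peaks and 13.6% of the narrow peaks of these stretches. By the same width classes the number was 19 of 119, 16 of 73, 17 of 48 and 10 of 36. Among narrow peaks the median reach was 7 bp below 200 bp and 28.5 bp from 400 to under 600 bp, so reach did not fall steadily with width over the whole range.

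**Figure D2:**
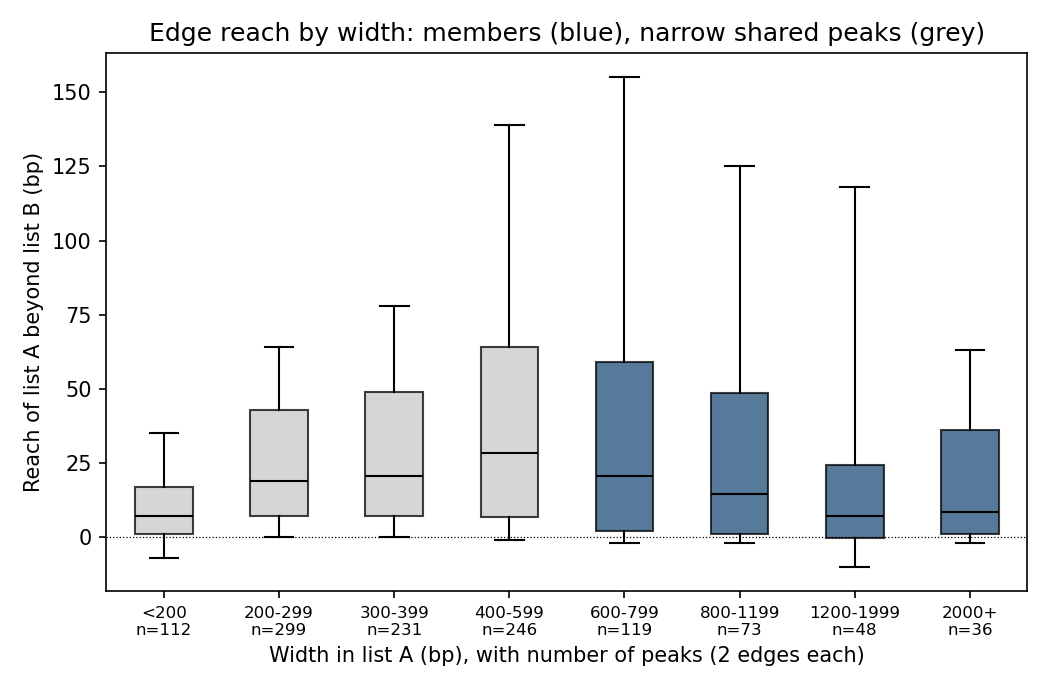
Reach of list A beyond list B at each edge (vertical axis, bp) by list A width (horizontal axis, bp), with members in blue and narrow shared peaks in grey. Boxes span the quartiles with the median as a line, whiskers span the central 80%, and the medians fall to 7 and 8.5 bp in the classes of 1200 bp and more.

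Of the 12 members wider than 4 kb, 5 had both edges within 10 bp of each other in the lists. A 3L peak from 20469944 to 20475540 had 5597 bp in list A, against 5592 bp for list B. On 3R, a peak from 26901836 to 26907494 measured 5659 bp by list A and 5647 bp by list B. On 2L, a peak from 3252009 to 3256954 measured 4946 bp and 4934 bp. These 3 were also among the 5 with the highest summits. The 2L run of 3 peaks from 20176890 to 20197534, with list A widths of 6813, 6808 and 6807 bp, gave list B spans of 6761, 6769 and 6771 bp. Their left edges lay 48, 36 and 33 bp further out in list A and their right edges 4, 3 and 3 bp. Their list A summits had the same −log10 p of 15.14, and this was the only set of members with equal summits and widths within 10 bp.

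The largest losses of width were found in shorter members. A 3L peak from 319242 to 320008 measured 767 bp by list A, and list B kept a core of 149 bp in it, a log2 ratio of 2.36. A 3R peak from 13529380 to 13530358 measured 979 bp by list A and 234 bp by list B (2.06). On 2L, a peak from 11807648 to 11808315 measured 668 bp by list A and 190 bp by list B (1.81), and list A reached 435 bp further on the left and 43 bp on the right. On 3R, a peak from 24161560 to 24162244 measured 685 bp by list A and 233 bp by list B (1.56). The last of these 5 lay on 2L from 6787321 to 6787943, with 623 bp by list A and 242 bp by list B (1.36). In all 5, the summits of both lists lay within 48 bp of each other, and the list A summit lay inside the list B peak.

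Wider calls in list B were fewer and smaller among members with a single partner of their own. The lowest log2 ratios were -0.30 on 2L from 4603955 to 4604793 (list A width 839 bp, list B span 1033 bp) and -0.28 on 3L from 608673 to 609403 (731 and 887 bp). The next were -0.14 on 2L from 348991 to 349603 (613 and 676 bp), -0.12 on 3L from 8495759 to 8496468 (710 and 770 bp) and -0.09 on 3R from 24620690 to 24621332 (643 and 686 bp). At 8 members, 1 list B peak took in the member and a further list A peak, and there the log2 ratio ran from -0.97 to -0.10. The lowest was -0.97, on 3L from 14818916 to 14819542, where 627 bp in list A met a list B peak of 1226 bp.

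Broad list A peaks were divided by list B more often than broad list B peaks were divided by list A. Of the 276 members, 48 (17.4%, 13.1 to 22.4) overlapped 2 or more list B peaks, 44 of them 2 peaks, 3 of them 3 peaks and 1 of them 5 peaks. Over all 3442 shared list A peaks the share was 3.28%, and over the narrow peaks 4 of 888. Those 4 were all among the 246 narrow peaks of 400 to under 600 bp. A divided peak must reach across a gap into 2 list B peaks, so these contrasts follow in large part from the width threshold. In the opposite direction, 9 of the 224 broad list B peaks (4.02%, 1.85 to 7.49) overlapped 2 or more list A peaks. Division was found in 13 of 119 members under 800 bp, 11 of 73 from 800 to under 1200 bp, 15 of 48 from 1200 to under 2000 bp and 9 of 36 at 2000 bp and wider.

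The gaps that divided members were short. There were 54, with a median of 123 bp, quartiles of 111 and 164 bp and a range of 101 to 427 bp. No neighbouring peaks of either list were closer than 101 bp, and 37 of the 54 gaps were under 150 bp. None of the 54 held the list A summit, which lay inside a list B peak in all 48 divided members. The largest piece took a median of 55.3% of the list B span, and it carried the highest list B summit in 39 of 48. Divided members were wider in list A than undivided ones, with medians of 1175 and 837 bp, and their outer edges were 20 bp further out in list A at the median, against 11.5 bp in undivided members.

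The member that list B divided most was also the widest. It lay on 3L from 650233 to 657873, and list B covered it with 5 peaks of 1101, 2569, 1579, 614 and 1542 bp, the last ending at 658388, 515 bp beyond the list A edge. A second 3L member, from 631763 to 638439, met list B peaks of 301, 2532 and 3561 bp. On 3R from 19158627 to 19161424 the outer pieces were 380 and 1762 bp with a shorter one between them, and on 2L from 12003031 to 12004937 they were 813, 232 and 142 bp. A 3R member from 25574831 to 25578869 met 2 list B peaks of 2343 and 1530 bp. In the first 3 of these, list B recovered most of the same ground in pieces, with 89.4%, 95.8% and 87.2% of the list A bases covered, and in the 2L member it covered 62.2%.

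Some members recurred with nearly the same shape at other places. This was looked for after the values had been seen, as members whose list A widths differed by at most 10 bp, whose summit offsets from the same or the opposite edge differed by at most 10 bp, and whose summit −log10 p differed by at most 0.25. That linked 59 members (21.4%) in 60 pairs and 21 sets, 32 of the members on 2L, 12 on 3L and 15 on 3R. Of the pairs, 52 matched in the same orientation and 8 mirrored. The sets include the 2L run of 3 neighbouring peaks from 20176890, which lie only 108 and 109 bp apart. A match of this kind may arise among unrelated peaks at any width, and that was not tested. Among the 119 members of 1000 bp and wider, 24 were in sets, in 18 pairs.

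The list B values of look-alike members follow in part from the list A values they were matched on, so they are given as a description. Of the 18 pairs of 1000 bp and wider, 11 had list B spans within 20 bp of each other, 15 had summit distances within 10 bp and 17 had list B summit −log10 p within 0.25. Some members stand in several of these pairs, and no such counts were made for unmatched pairs. The pairs within the 2L run of neighbouring peaks from 20176890 are in all of these counts. A 2L peak from 6880454 to 6882785 (2332 bp) and a 3R peak from 27108775 to 27111104 (2330 bp) both had their summit 1325 bp from the left edge. In both, the list A summit was 1121 bp to the right of that in list B. Peaks of 1062, 1068 and 1060 bp, starting at 2775509 and 10879455 on 2L and at 16612519 on 3L, had list B spans of 917, 921 and 915 bp. Each lost between 136 and 147 bp in list B on the right and between 0 and 9 bp on the left. A set of 4 peaks of 613 to 615 bp held the 3 lowest list A summits of all members, and their list B edges differed. The left edge was 229 and 227 bp further in for the peaks starting at 12934939 and 20304249 on 2L, and 59 and 9 bp further out for those starting at 348991 on 2L and 8492485 on 3L.

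**Figure D3:**
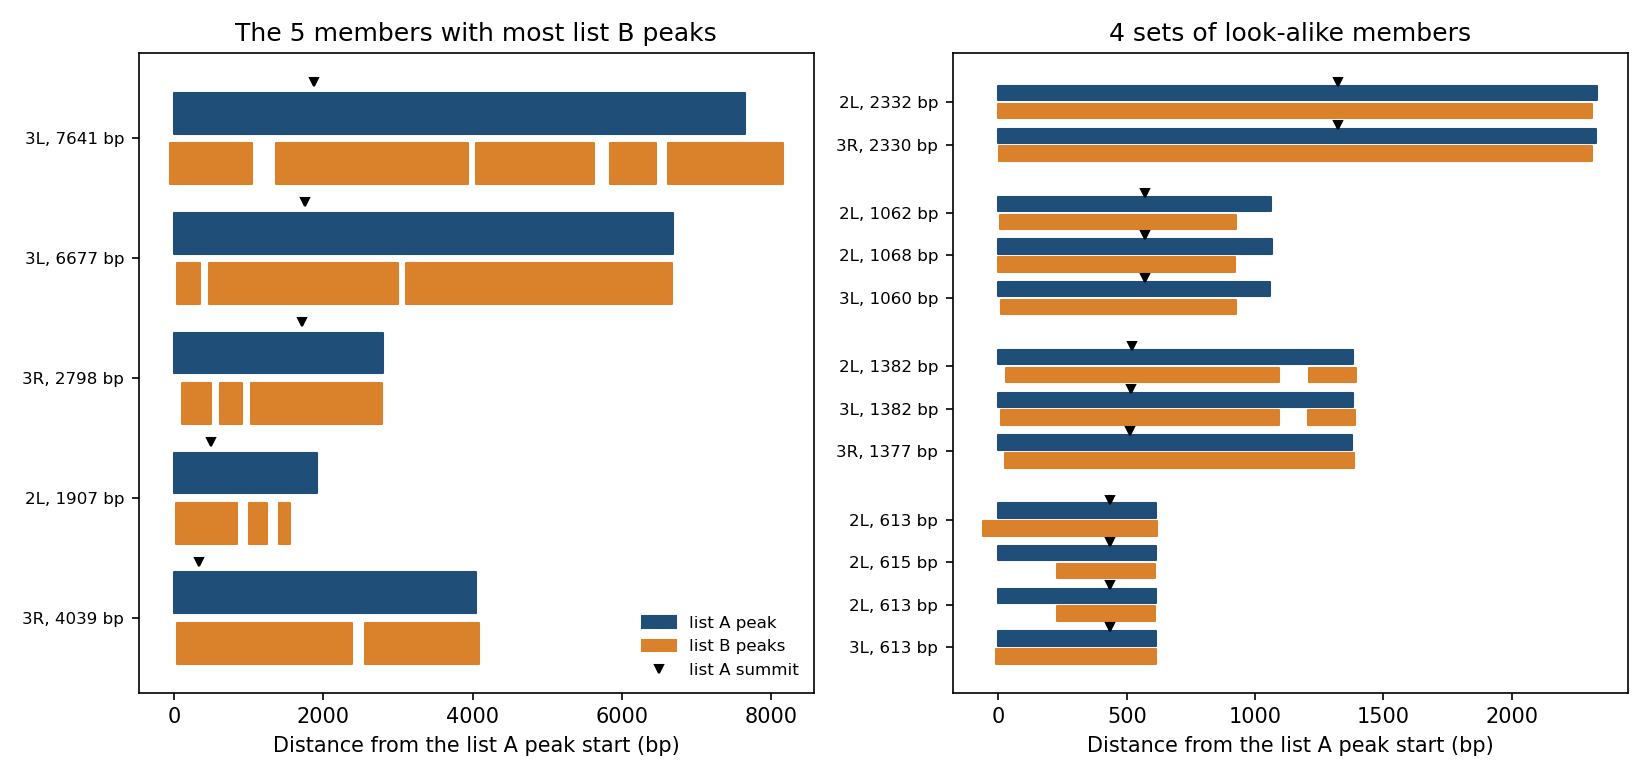
List A peaks (blue, above) and list B peaks (orange, below) of single members by distance from the list A start (bp), with a triangle at the list A summit. The left panel has the 5 members with most list B peaks, and the right panel 4 sets of look-alike members, of 2332, 1062 to 1068, 1377 to 1382 and 613 to 615 bp, in which list B ends at like places in the 1062 to 1068 bp set, divides 2 of the 3 members of the 1377 to 1382 bp set and leaves out the left part of 2 of the 4 members of the 613 to 615 bp set.

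Summits stayed in place in most members. The list A summit and the nearest list B summit lay at the same base in 71 members, within 10 bp in 182 (65.9%) and from 11 to 99 bp apart in 52. Over all 3442 shared list A peaks, 32.7% had both summits at the same base, against 25.7% of members. Within 10 bp the share was 68.6% over all shared list A peaks and 58.2% in narrow ones. The median distance was 5 bp (3 to 7) in members, 8 bp in narrow shared peaks and 3 bp over all shared list A peaks. Members thus did not hold their summits more closely than shared peaks in general. List A summits lay to the right of list B summits in 100 members and to the left in 105. Within the list A peak, the summit fell between 33.3 and 66.7% of the width in 128 members (46.4%) and within 10% of the width from an edge in 13. The list A summit was inside a list B peak in 274 of 276 members. Overlap is part of the rule and list B covered a median of 93.6% of a member. No such count is given for other peaks, so nothing is read from it.

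A shift of 100 bp or more was found in 42 members (15.2%), against 8.6% of all shared list A peaks and 10.2% of the narrow ones. A shift needs room, so these contrasts may follow in part from width. Among narrow peaks shifts were found in 3 of 112 below 200 bp and 21 of 299 from 200 to under 300 bp. The counts were 37 of 231 from 300 to under 400 bp and 30 of 246 from 400 to under 600 bp. In members they were 13 of 119 under 800 bp and 17 of 73 from 800 to under 1200 bp. In wider members they were 6 of 48 under 2000 bp and 6 of 36 from 2000 bp. The share did not climb steadily with width. Shifted members had lower list A summits, with a median −log10 p of 5.48 against 6.55 in the other members. Their median list A widths were 984 and 860 bp. The largest shift was 1409 bp, on 3R from 25574831 to 25578869. It was followed by the 2 look-alike peaks of 2332 and 2330 bp with 1121 bp each. A 3R peak from 25561572 to 25563940 had 788 bp, and one from 25573487 to 25574651 had 707 bp. Of these 5 members, 3 lay on 3R between 25.5 and 25.6 Mb.

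Members had high summits within each list. The deposited summit −log10 p is the authors' own value and varies with sequencing depth, so it is set against other peaks of its own list. The median over members was 6.39 in list A (quartiles 5.10 and 8.27) and 5.598 in list B (4.79 and 7.15), taking the highest list B peak where there were several. By rank within their own list these stood at percentile 77.3 of list A (73.2 to 80.1) and, for the overlapping peak of largest area, 67.2 of list B (62.5 to 71.0). Narrow shared peaks stood at 63.1 and 38.4, and all shared list A peaks of the series at 65.5 and 53.2. Members were chosen by width and overlap, which may favour high summits, and this was not tested. Lists of different length and make-up give different percentiles, so the 2 ranks do not show a change. In list A, 65 members (23.6%) were among the top 10% of summits, against 45 of 888 narrow shared peaks (5.07%). Of the 65, 40 were also among the top 10% of list B, a share not counted for other peaks. The highest were on 3L from 20469944 to 20475540 (26.18 in list A and 24.19 in list B) and on 3L from 627855 to 630270 (18.06 and 14.37). The next were on 3R from 26901836 (16.90 and 15.80), on 3R from 11444550 to 11445612 (16.45 and 15.40) and on 2L from 3252009 (16.001 and 14.49). The lowest were 4.09, 4.13 and 4.16 in list A, in look-alike peaks starting at 8492485 on 3L and at 12934939 and 348991 on 2L, with 4.01, 4.01 and 4.02 in list B.

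The order of the members by summit height was much alike in both lists, with a Spearman rho of 0.904 over the 276 members. Whether the lists share libraries is not given in the sources used here, so this is a description. Shifted summits of 100 bp or more were found in 16 of the 69 members with the lowest list A summits, in 13 and 7 of the next 69 each, and in 6 of the 69 with the highest.

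**Figure D4:**
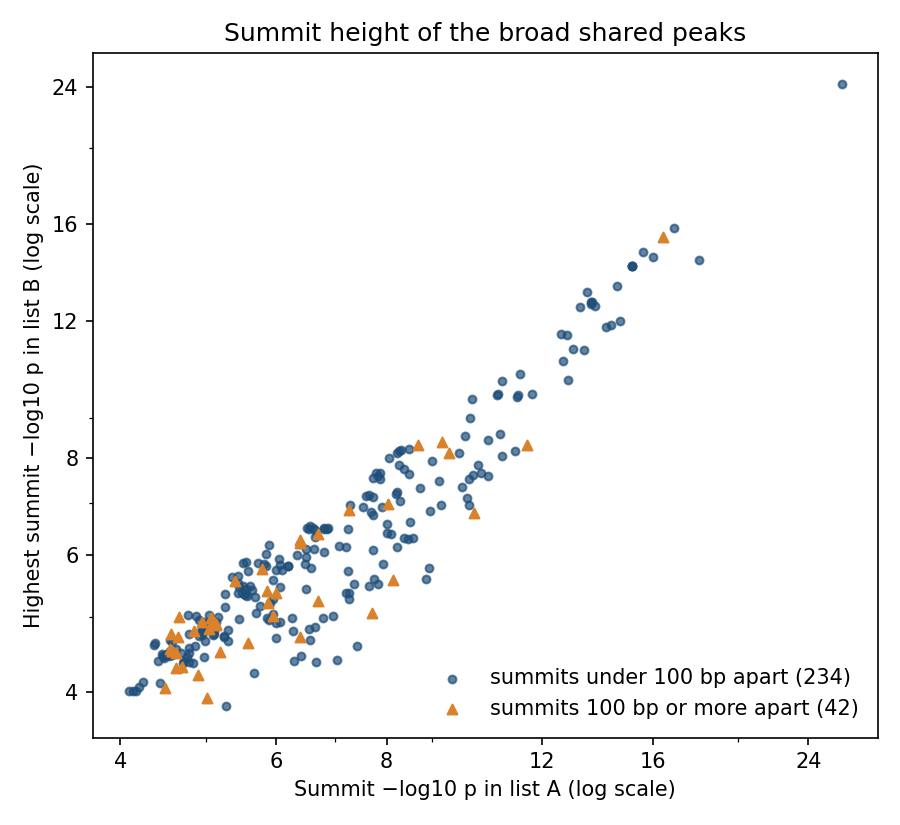
Summit −log10 p of each member in list A (horizontal axis) and the highest in list B (vertical axis), both log scales, with triangles for the 42 members with summits 100 bp or more apart. The order is alike in both lists (Spearman rho 0.904), and the triangles crowd towards the lower left.

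Edge reach neither fell nor climbed steadily with list A summit height. With members ranked by list A summit into sets of 69, the median edge reach was 8, 12, 21.5 and 12.5 bp from the lowest set to the highest. Both edges held within 10 bp in 15, 15, 14 and 18 members of these sets, and 7, 12, 17 and 12 were divided. List A was wider in 46, 60, 61 and 63 of them. Median list A widths were 794, 878, 881 and 1233 bp, and the Spearman rho of height and width over the members was 0.29. Reach did climb with the summit −log10 p of list A minus the highest of list B. Its median was 4 bp where this difference was under 0.25, 9 bp from 0.25 to 1 and 34.5 bp over 1. List A was wider in 65 of 98, 74 of 83 and 91 of 95 of these members. Edges and summits are both read from the caller's significance, so these values are a description.

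Members were unevenly spread along the arms. The window and distance counts below were not made for all shared list A peaks, so they do not set members apart from those. Over 69.5 Mb of euchromatic arm there were 3.97 members per Mb, 4.24 on 2L, 3.77 on 3L and 3.94 on 3R. In windows of 100 kb, 580 of 697 (83.2%) held none, 51 held 1 and 9 held 5 or more. These 9 windows contained 88 members, 31.9% of the total. Of the 273 distances between neighbouring members on an arm, 88 were under 1 kb and 147 (53.8%) under 10 kb, while 101 were over 100 kb and 25 lay between. The closest neighbours were 107 bp apart on 2L (the peaks starting at 16155670 and 16156844) and 108 and 109 bp apart in the run of 3 peaks on 2L from 20176890. A further pair on 3L, starting at 4903589 and 4904462, was also 109 bp apart.

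**Figure D5:**
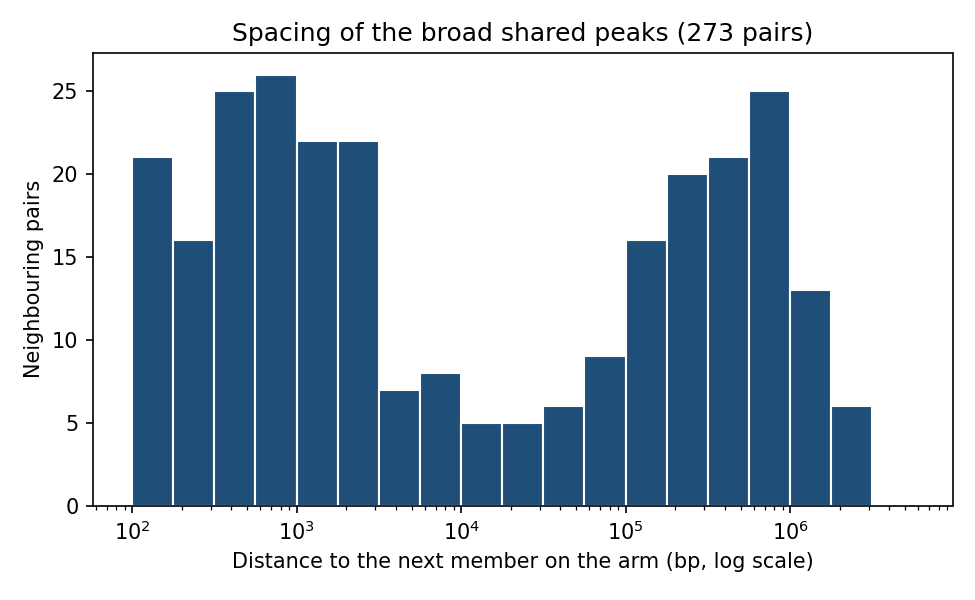
Number of neighbouring member pairs (vertical axis) by the distance between their facing edges (horizontal axis, bp, log scale). The 273 distances fall into 2 heaps, with 147 under 10 kb, 101 over 100 kb and 25 between.

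The densest windows lay on chromosome 3. On 3R from 25.5 to 25.6 Mb there were 23 members among 45 shared list A peaks, and the members covered 33.5% of the 91.0 kb from the first to the last of them. The next window, to 25.7 Mb, added 8 members among 11 shared peaks. On 3L from 0.6 to 0.7 Mb there were 17 members among 29 shared peaks, in a stretch of 55.3 kb from 606110 to 661362 of which the members covered 62.7%. On 3R from 19.1 to 19.2 Mb there were 11 among 28. By megabase, 3R from 25 to 26 Mb held 35 of the 102 members of its arm, against 78 of its 476 shared list A peaks. On 3L, 0 to 1 Mb held 25 of 85 members and 66 of 329 shared peaks. On 2L, 0 to 1 Mb held 13 of 89 members and 35 of 359 shared peaks. Shared peaks of any width were thus also frequent in these stretches.

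The 51 members of the 3 densest windows had fewer shared edges and more divisions than the other 225. Both edges agreed within 10 bp in 4 of 51, against 58 of 225 outside, and 14 of 51 were divided, against 34 of 225. Summits were shifted by 100 bp or more in 12 of 51, against 30 of 225. Median list A widths were 1036 bp in these windows and 856 bp outside. The median list A summit −log10 p was 5.94 inside and 6.48 outside. The windows were picked by their number of members, neighbouring peaks share their surroundings, and no test of these differences was made.

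Every arm held divided members and members with shared edges. The median edge reach was 16.5 bp on 2L, 10 bp on 3L and 16 bp on 3R. Divided members were 18 of 89, 15 of 85 and 15 of 102. Both edges agreed within 10 bp in 15 of 89, 24 of 85 and 23 of 102. The median list A summit −log10 p was 6.3996 on 2L, 6.56 on 3L and 5.98 on 3R, and the list B values were 5.27, 6.12 and 5.49. List A was wider in 72 of 89 members on 2L, 69 of 85 on 3L and 89 of 102 on 3R.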

How the data were processed

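Per the submitters' processing notes, reads were handled with Bowtie2 and Genrich 0.5 on dm3. Options, filters and pooling are unknown here. Each deposited list has 10 columns in narrowPeak order. The deposited signal is the caller's area of significance over a peak, used here only to rank peaks, and the deposited summit −log10 p was used as given by the authors. Starts, ends and summit offsets are in bp, and coordinates are printed 1-based. Depth per library is unknown.

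Overlaps, widths, edges, summit distances and counts were computed with scipy 1.17.1, pandas 2.3.3 and numpy 2.4.6 under Python 3.11.15, in code tested on simulated lists. Where several list B peaks met a member, the span ran from the first to the last, the distance was to the nearest summit and the rank was that of the peak with the largest area. Intervals are 95%, exact binomial (Clopper-Pearson) for shares and from order statistics for medians. The members, the lists of named peaks and the alternatives were chosen with earlier results of these data known. Named were the widest, highest, lowest, most divided, most shifted and closest members, those with extreme width ratios or at the threshold, sets of equal summit and width, and the 3 densest windows, while the look-alike sets were defined after their values were seen. No dm3 genome or annotation was used here, so no gene or sequence is given.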

Additional observations from a re-analysis of the deposited data

How the results depend on the processing

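The 9 results were recomputed under 16 settings. Of 143 values, 20 left the interval of the reported value, 123 did not and 0 reversed. Of the settings, 13 were planned and the 3 that left out dense stretches or look-alike members were chosen after seeing the data. The density (3.97 members per Mb) follows the number of members by construction: 5.38 from 500 bp, 2.26 from 800 bp, 3.22 with the width read in list B, 3.44 in the stronger 50% of each list, 3.20 for one-to-one pairs, 3.25 without the 3 densest windows, 3.12 without look-alike members, and 3.20 without 3L from 0 to 1 Mb and 3R from 25 to 26 Mb.

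The median log2 width ratio was 0.102 from 500 bp, 0.025 from 800 bp and 0.030 when the mean width of both lists was used, where 78.0% were wider in list A. The edge reach was 9 bp from 800 bp, with the width read in list B, and with the mean width. One-to-one pairs hold 0 divided members by construction, and joining peaks within 200 bp gave 13.0%. The median list B percentile was 74.6 from 800 bp and 71.3 in the stronger 50%, and the list A percentile was 81.2 without look-alike members. Leaving out an arm, moving the proximal bound by 1 Mb, requiring 50% coverage and leaving out the equal-summit run of 2L moved none of the 9 results.

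No paired analysis was possible because the labels name both lists for each of the 4 libraries, and no replicate was left out for that reason. With the width read in list B the share of divided members has no value, and division in the other direction is given in its place. Depth is unknown.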

Other observations

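Some pairs of members recurred with like widths and spacing, a pattern sought after the values were seen. Among 277 pairs of members within 10 kb of each other, 8 matches were found in which both widths and the spacing agreed within 20 bp, 7 in the same orientation and 1 mirrored. Of the 8, 1 is the 2L run of 3 peaks from 20176890 matched with itself, so that its middle peak stands in both pairs. On 2L, peaks of 613 and 798 bp starting at 348991 and 352257 were 3266 bp apart from start to start. Peaks of 615 and 794 bp at 12934939 and 12938213 were 3274 bp apart, and peaks of 613 and 795 bp at 20304249 and 20307523 were also 3274 bp apart. A pair of 622 and 1098 bp on 3L at 402875 and 404591 (1716 bp apart) matched one of 623 and 1091 bp at 7786998 and 7788717 (1719 bp). The mirrored match joined 1191 and 1153 bp on 2L at 3204994 and 3207032 to 1142 and 1200 bp on 3R at 24001450 and 24003436. How many such matches unrelated peaks would give was not tested.

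By the measure of look-alike members, 66 of the 276 members had a look-alike among the other list A peaks of 600 bp or more. For 27 members one lay on X, and for 28 one lay on chromosome 4, a Het scaffold or an unplaced scaffold. No such share is given for other list A peaks, nor the number of peaks searched in each place. How many matches unrelated peaks would give was not tested, so these counts do not set members apart.

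In 4 list A peaks of the same stretches the width condition was met with no list B partner. They lay on 2L from 2196531 to 2197213, on 3L from 2823447 to 2824136, and on 3R from 5756824 to 5757563 and from 25078250 to 25079145. Their list A summit −log10 p were 5.63, 5.82, 6.39 and 4.05.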
